A study of Mus musculus with 2 samples.

Results

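The genes described here are the solute carriers, taken as symbols of Slc followed by digits, in EpA ependymal cells of the mouse spinal cord. A symbol became a member when it reached 10 unique molecular identifiers (UMIs, single captured mRNA molecules) per 1000000 (CPM) in at least 1 of 4 sums of cells. Of 275 listed symbols, 175 did so. Slc1a2, Slc1a3, Slc2a1, Slc16a1, Slc16a3 and Slc7a11 were left out by the rule. The 4 sums were EpA cells and kept cells outside EpA, each in an injured and in an uninjured library. The members were thus chosen by their level in these sums, the same values that are compared below, and 74 of them reached the floor in all 4. A further 40 passed in a single sum and so had to stand apart there, 28 of them in uninjured cells outside EpA, 8 in uninjured EpA and 4 in injured EpA. Just inside the floor lay Slc18b1, Slc22a15 and Slc24a3, each at 10.9 CPM from 14 UMIs, and just outside it lay Slc2a13 at 9.75 CPM and Slc7a6 and Slc27a3 at 9.61 CPM. The symbol rule also takes in the scaffold proteins Slc9a3r1 and Slc9a3r2 and the unrelated Slc4a1ap and Slc7a6os, which move no solute.

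EpA cells are a subpopulation of the cells lining the central canal, the ependyma, and the study asked how their transcripts differ after injury. The injured group was spinal cord whose dorsal funiculus had been incised 3 days earlier, and the other group was intact cord. Both came from adult C57BL/6J mice of 12 weeks or more that carried Troy-CreERT2+/- and Rosa26-tdTomato. Segments of 5 mm were dissociated and cells with tdTomato were sorted for droplet sequencing of mRNA 3′ ends. The red reporter marks cells in which CreERT2, a tamoxifen-dependent recombinase under the control of Troy (Tnfrsf19), has acted, so the sort holds whatever other cells carry it. There was 1 library per group, so differences rest on single libraries, carry no replicate check and were not tested. The sources used here do not give the number of animals behind a library.

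The authors' EpA set held 1004 injured and 555 uninjured cells, with 25296289 UMIs in injured and 7689179 UMIs in uninjured cells. The median cell had 20158.5 UMIs in the injured and 11387 UMIs in the uninjured set. Kept cells outside it numbered 224 injured and 156 uninjured, with medians of 15622 UMIs in injured and 6879.5 UMIs in uninjured cells. The median mitochondrially encoded share of UMIs was 6.76% in injured and 11.2% in uninjured EpA cells. Each of 10 ependymal markers exceeded 100 CPM in both EpA sums, and together they reached 2840 CPM in injured and 9977 CPM in uninjured EpA cells. Endothelial, microglial and fibroblast markers were low in both: their summed levels were 24.9, 43.96 and 38.5 CPM in injured EpA cells and 28.1, 49.3 and 31.2 CPM in uninjured EpA cells. The 7 astrocyte markers, some of which ependymal cells also express, summed to 657 CPM in injured and 533 CPM in uninjured EpA cells. Markers of macrophages summed to 738 CPM in injured and 131 CPM in uninjured EpA cells, with 1 of 6 over 10 CPM in each, and those of mural cells to 130 CPM in injured and 28.6 CPM in uninjured EpA cells. The part of other cells' RNA in the results was not tested. Depth, mitochondrial share and library moved together with injury and cannot be told apart from it.

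Solute carriers are a large group of membrane transporters and carry ions, sugars, amino acids, nucleotides, metals and vitamins across the plasma membrane and the membranes of organelles. Ependymal cells form the boundary between the cerebrospinal fluid and the cord tissue, and astrocytes, endothelial cells of the blood-brain barrier and microglia each use characteristic carriers of their own. Mitochondrial carriers of the Slc25 family exchange adenine nucleotides, phosphate and metabolites across the inner mitochondrial membrane, and nucleotide sugar carriers of the Slc35 family feed glycosylation in the Golgi and endoplasmic reticulum.

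The members took up a similar share of transcripts in both EpA sums, 5196 CPM in injured and 5312 CPM in uninjured EpA cells, and the median member had 13.9 CPM in injured and 14.7 CPM in uninjured EpA cells. Tags at mRNA 3′ ends carry no length term, so levels are compared between genes without one. The most abundant members were mitochondrial. Slc25a4, an ADP/ATP carrier, had 626 CPM in injured and 484 CPM in uninjured EpA cells. Slc25a3, the mitochondrial phosphate carrier, had 468 CPM in injured and 338 CPM in uninjured EpA cells. Slc25a5, another ADP/ATP carrier, had 327 CPM in injured and 298 CPM in uninjured EpA cells. These 3 carriers had the highest levels of all members in both sums. At the plasma membrane, the amino acid carrier Slc38a1 had 222 CPM in injured and 267 CPM in uninjured EpA cells, and the sodium bicarbonate cotransporter Slc4a4 had 87.96 CPM in injured and 146 CPM in uninjured EpA cells. The urea transporter Slc14a1 had 106 CPM in injured and 97.3 CPM in uninjured EpA cells. The rest of the 10 highest members included Slc5a3 in the injured sum and Slc26a3, Slc25a18 and Slc39a12 in the uninjured sum.

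A member was called higher or lower between EpA sums when it differed by 2-fold and reached 10 CPM in either sum, which let 127 of the 175 be assessed. Of these, 15 were higher and 21 lower in injured EpA cells. Over all 9418 genes assessed alike, 11.4% were higher and 11.4% lower. With 10 CPM required in both sums, 9 members were higher and 14 lower out of 100, against 6.29% and 9.06% of 7856 genes. The members' log2 ratios, injured over uninjured, had a median of -0.13, against -0.02 for all genes, and the members ranged from -2.21 to 2.93. The 95% counting interval lay wholly past 2-fold for 7 of the higher and 10 of the lower members. These intervals cover counting error only and say nothing of variation between animals. Counts per cell without scaling put the median of all genes at 0.84 and that of the members at 0.73 on the log2 scale, so every statement below is relative to the total of each sum. When every cell was given the same weight, which takes away the greater weight of cells with many UMIs, 6 members were higher and 5 lower. These were out of 126 assessed, and 6.68% and 3.84% of all genes were called in that setting.

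**Figure D1:**
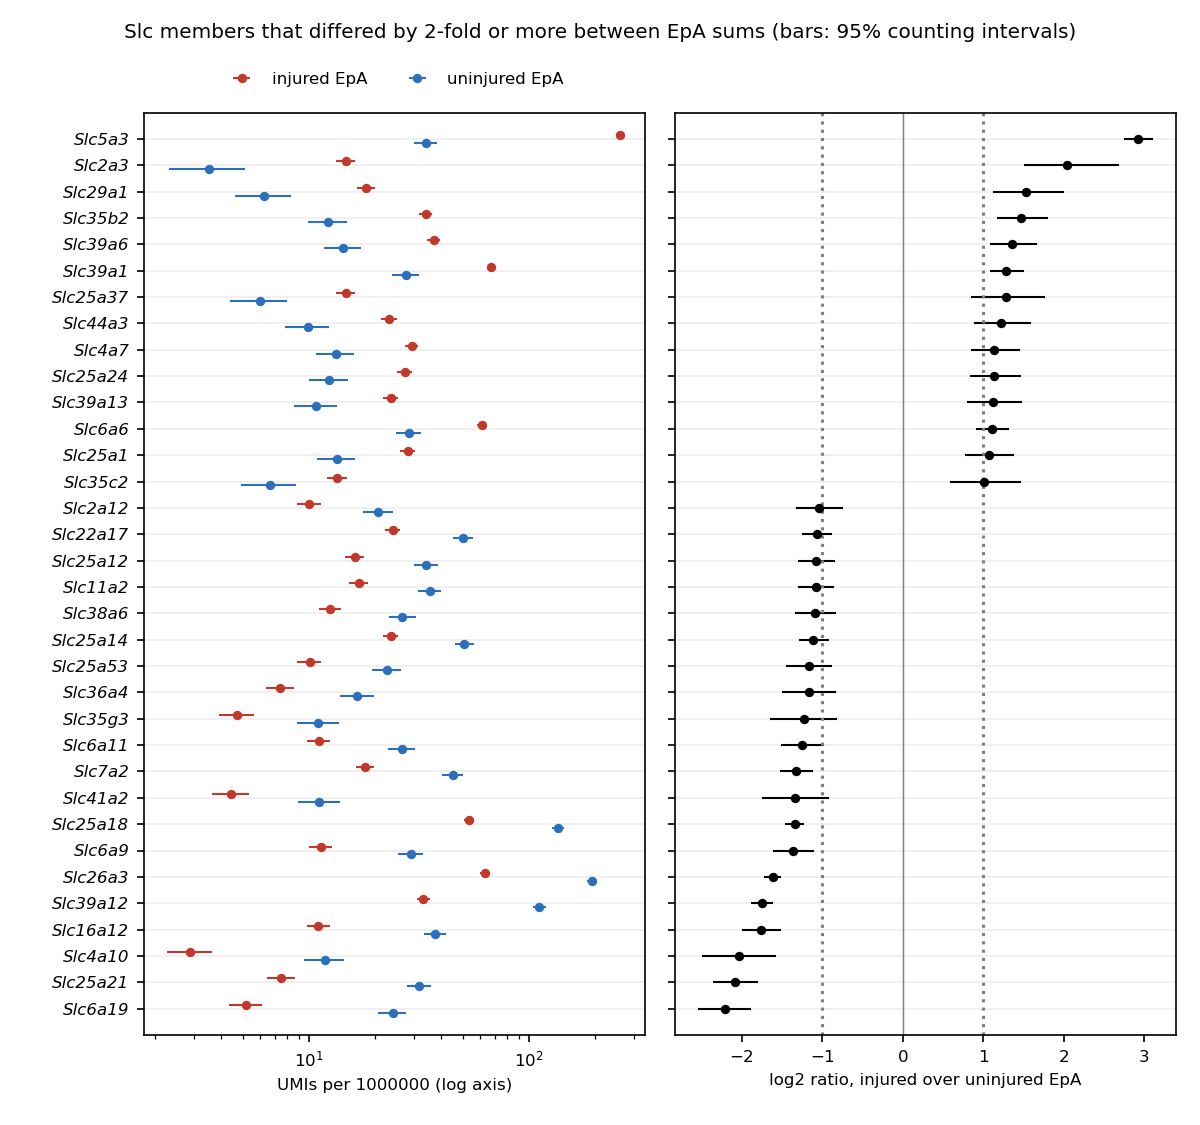
Of the 36 called members, 34 are shown, ordered by ratio. The left panel shows the level in injured and uninjured EpA sums in UMIs per 1000000 on a log axis, and the right panel the log2 ratio of injured over uninjured, with 95% counting intervals as bars and dotted lines at 2-fold. Of those shown, Slc5a3 has the highest ratio, 2.93, and Slc6a19 the lowest, -2.21.

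Sequences before the RefSeq start sites are given for 3 higher and 3 lower members. These had the highest EpA levels among called members with an entry in the RefSeq promoter table. The windows do not stand for the promoters of the called groups. They are 250 bases upstream from the RefSeq table of build GRCm38.p6, all on the plus strand, with motif matches in capitals.
Slc5a3 chr16:92058072-92058321: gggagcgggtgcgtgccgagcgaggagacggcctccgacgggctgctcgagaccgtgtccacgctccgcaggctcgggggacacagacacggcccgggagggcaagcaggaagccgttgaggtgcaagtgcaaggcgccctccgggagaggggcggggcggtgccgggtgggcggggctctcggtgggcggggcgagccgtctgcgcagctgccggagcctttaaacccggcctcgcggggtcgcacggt
Slc39a1 chr3:90247942-90248191: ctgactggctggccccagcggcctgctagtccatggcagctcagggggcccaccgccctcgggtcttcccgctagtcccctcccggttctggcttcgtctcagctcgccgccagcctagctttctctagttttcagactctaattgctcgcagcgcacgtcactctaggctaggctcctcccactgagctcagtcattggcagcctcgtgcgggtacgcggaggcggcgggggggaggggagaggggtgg
Slc35b2 chr17:45563686-45563935: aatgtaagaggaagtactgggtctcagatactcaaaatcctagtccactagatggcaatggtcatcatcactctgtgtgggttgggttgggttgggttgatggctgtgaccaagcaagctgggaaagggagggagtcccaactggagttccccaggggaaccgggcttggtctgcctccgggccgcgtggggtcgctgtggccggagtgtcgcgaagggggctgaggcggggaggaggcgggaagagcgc
Slc26a3 chr12:31437969-31438218: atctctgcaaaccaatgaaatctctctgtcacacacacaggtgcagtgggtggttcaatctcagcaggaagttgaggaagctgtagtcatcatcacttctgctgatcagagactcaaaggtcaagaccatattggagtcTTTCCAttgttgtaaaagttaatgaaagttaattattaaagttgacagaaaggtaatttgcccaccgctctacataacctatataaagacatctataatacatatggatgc
Slc25a18 chr6:120773518-120773767: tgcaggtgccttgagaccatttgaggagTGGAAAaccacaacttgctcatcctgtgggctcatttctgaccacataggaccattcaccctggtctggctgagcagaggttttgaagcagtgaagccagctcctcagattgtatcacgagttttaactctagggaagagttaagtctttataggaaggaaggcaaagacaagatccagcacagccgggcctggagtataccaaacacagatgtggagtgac
Slc39a12 chr2:14388148-14388397: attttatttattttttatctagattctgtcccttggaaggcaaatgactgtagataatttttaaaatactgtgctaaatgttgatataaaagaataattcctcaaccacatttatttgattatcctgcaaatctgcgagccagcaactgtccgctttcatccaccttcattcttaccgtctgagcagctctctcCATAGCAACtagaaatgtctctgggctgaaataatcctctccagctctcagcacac
A search on both strands covered the RFX motif GTTGCNATG, known from promoters of cilium genes, the core TGGAAA bound by NFAT5, the tonicity-responsive factor known to act on Slc5a3, the ATF4 element TGATGNAA and the AP-1 site TGANTCA. The window of Slc39a12 held the RFX motif 56 to 48 bases before the start. NFAT5 cores lay 111 to 106 bases before the start of Slc26a3 and 222 to 217 bases before that of Slc25a18, and the 3 windows of the higher members held none of the 4 motifs. The table had an entry for 137 members, 10 of them called higher and 18 lower. The RFX motif occurred in 2 of the 18 lower members, Slc39a12 and Slc35g3, in 0 of the 10 higher ones and in 1.25% of all 27025 promoters. The NFAT5 core occurred in 3 of the 18 lower members, in 1 of the 10 higher ones, Slc4a7, and in 18.69% of all promoters. The ATF4 element occurred in none of these 28 and in 3.53% of all promoters, and the AP-1 site in 1 lower member, Slc4a10, and in 6.87% of all promoters. Upstream GC content was 74.8%, 66.4% and 60.4% for Slc5a3, Slc39a1 and Slc35b2, and 38.8%, 48.8% and 37.6% for Slc26a3, Slc25a18 and Slc39a12. GC content over the other members and over all genes was not computed. The bases after the RefSeq start of Slc25a18 matched no GENCODE M21 transcript of that gene. The window of Slc26a3 lies inside the span of that gene given below. Its letters and GC content thus belong to a start within the span, not to the region before the whole gene. A match describes the letters of a window and shows no binding.

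Among carriers of sugars and polyols, 2 of 7 assessed members were higher and 1 was lower in injured EpA cells. The counts of this and the following role groups stand beside 11.4% higher and 11.4% lower over all genes. The groups are small and were not tested against those shares. Slc5a3, the sodium-coupled carrier of myo-inositol (chr16:92058322-92087473, plus strand, GENCODE M21), had 260 CPM in injured EpA cells from 6569 UMIs and 34.1 CPM in uninjured EpA cells from 262 UMIs. It was 7.62-fold higher in injured cells (95% counting interval 6.73 to 8.66) and had the fourth highest level of all members there. Exons of Slc5a3 overlap those of Mrps6 on the same strand. Mrps6, a mitochondrial ribosomal protein gene, had 512 CPM in injured and 114 CPM in uninjured EpA cells, so the assignment of reads between the genes is uncertain. Slc2a3, a high-affinity glucose carrier, had 14.7 CPM in injured and 3.51 CPM in uninjured EpA cells, 4.19-fold higher (2.83 to 6.44). Slc2a12, another glucose carrier, was lower, at 10.0 CPM in injured and 20.7 CPM in uninjured cells. Sugar carrier Slc50a1 stayed within 2-fold, with 35.9 CPM in injured and 21.8 CPM in uninjured cells.

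Among the monocarboxylate carriers, Slc16a12, a carrier of creatine and related compounds, had 11.1 CPM in injured and 37.6 CPM in uninjured cells, 3.40-fold lower (2.87 to 4.02).

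Metal ion carriers held 3 higher and 3 lower members of 21 assessed. All of the higher ones belong to the Slc39 family, which brings zinc into the cytosol. Slc39a1 had 67.5 CPM in injured and 27.6 CPM in uninjured EpA cells, and Slc39a6 had 36.9 CPM in injured and 14.3 CPM in uninjured EpA cells. They were 2.45-fold (2.12 to 2.84) and 2.58-fold (2.12 to 3.17) higher. Slc39a13 had 23.6 CPM in injured and 10.8 CPM in uninjured cells. Slc39a12, a member of the same family known from brain, stood on the other side with 33.2 CPM in injured and 112 CPM in uninjured cells, 3.37-fold lower (3.06 to 3.71). The family therefore did not move as 1 group, and Slc39a10 was at 40.95 CPM in injured and 38.1 CPM in uninjured cells. Slc41a2, a magnesium transporter, had 4.43 CPM in injured and 11.2 CPM in uninjured cells, and Slc11a2, the divalent metal transporter that carries iron, had 16.8 CPM in injured and 35.6 CPM in uninjured cells.

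Carriers of chloride, bicarbonate and other ions held 1 higher and 2 lower members of 11 assessed. Slc26a3, a chloride and bicarbonate exchanger best known from the colon (chr12:31390871-31473917), had 63.1 CPM in injured EpA cells from 1595 UMIs and 194 CPM in uninjured EpA cells from 1491 UMIs. It was 3.08-fold lower (2.86 to 3.30). Slc4a10, a sodium bicarbonate carrier of the choroid plexus and neurons, had 2.89 CPM in injured and 11.8 CPM in uninjured cells, 4.10-fold lower (2.98 to 5.66). Slc4a7, a carrier of the same family, went the other way with 29.3 CPM in injured and 13.3 CPM in uninjured cells. Both urea transporters stayed within 2-fold: Slc14a2 had 46.9 CPM in injured and 87.0 CPM in uninjured cells.

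The Slc6 family of sodium-coupled carriers had 1 higher and 4 lower members of 7 assessed. Slc6a6, which takes up taurine, had 61.4 CPM in injured and 28.5 CPM in uninjured EpA cells, 2.16-fold higher (1.87 to 2.50). Slc6a19, a neutral amino acid carrier known from kidney and gut, had 5.18 CPM in injured and 24.1 CPM in uninjured cells and was 4.65-fold lower (3.69 to 5.86), the lowest ratio of the members assessed. The lower members also included the GABA carrier Slc6a11 and the glycine carrier Slc6a9. Slc6a11 had 11.1 CPM in injured and 26.4 CPM in uninjured cells, and Slc6a9 had 11.3 CPM in injured and 29.1 CPM in uninjured cells. Astrocyte-like cells outside EpA held Slc6a11 at a far higher level, as described below. The part of astrocyte RNA in these values was not tested.

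Amino acid carriers of other families held no higher and 3 lower members of 10 assessed. Slc7a2, a carrier of arginine and lysine, had 18.03 CPM in injured and 45.1 CPM in uninjured EpA cells, and was 2.50-fold lower (2.17 to 2.88). Slc38a6 and Slc36a4 were the other two. Slc7a8, a carrier of large neutral amino acids, stayed under 10 CPM in both EpA sums and was not assessed. It is singled out here after its values were seen: 203 UMIs in injured EpA cells (8.02 CPM) and 2 UMIs in uninjured EpA cells (0.26 CPM) gave a ratio of 30.9 with a counting interval of 8.43 to 256.

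Mitochondrial carriers held 3 higher and 5 lower members of 28 assessed, and the 3 most abundant of them stayed within 2-fold. Slc25a18, a glutamate carrier, had 53.5 CPM in injured and 136 CPM in uninjured EpA cells, 2.54-fold lower (2.34 to 2.76). Slc25a21, which carries oxodicarboxylates, had 7.51 CPM in injured and 31.9 CPM in uninjured cells and was 4.24-fold lower (3.5 to 5.15). The other lower members were Slc25a12, an aspartate and glutamate carrier, Slc25a14 and Slc25a53. The higher members were Slc25a37, which brings iron into mitochondria, Slc25a24, a carrier of ATP-magnesium and phosphate, and the citrate carrier Slc25a1. Slc25a37 had 14.7 CPM in injured and 5.98 CPM in uninjured cells, Slc25a24 had 27.3 CPM in injured and 12.4 CPM in uninjured cells, and Slc25a1 had 28.1 CPM in injured and 13.4 CPM in uninjured cells.

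Carriers of nucleotide sugars and related donors held 2 higher and 1 lower member of 19 assessed. Slc35b2, which supplies the Golgi with the sulphate donor PAPS, had 34.04 CPM in injured and 12.2 CPM in uninjured EpA cells, 2.78-fold higher (2.25 to 3.48). Slc35c2 was higher and Slc35g3 lower. Among the remaining roles, the nucleoside carrier Slc29a1 had 18.3 CPM in injured and 6.24 CPM in uninjured cells, 2.93-fold higher (2.17 to 4.03), and Slc44a3, of the choline carrier-like family, had 23.2 CPM in injured and 9.88 CPM in uninjured cells. Slc22a17 was the only lower organic ion carrier. No vesicular or lysosomal, phosphate or sulphate, scaffold or urea member was called in this comparison.

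Clusters of the kept cells, formed without any Slc gene, showed that the differences were not spread evenly over the injured EpA cells. Uninjured EpA cells fell almost wholly in clusters 0 and 2, with 419 and 127 cells. The 262 injured EpA cells of cluster 0 had 0 members higher and 1 lower than the uninjured EpA sum out of 118 assessed, against 0.431% and 0.623% of all genes. The lower one was Slc38a2, at 47.7 CPM against 95.6 CPM in all uninjured EpA cells, just past the threshold. The 80 injured EpA cells of cluster 2 had 1 higher and 1 lower of 121 (1.92% and 1.68% of all genes), and the 141 of cluster 4 had 3 higher and 2 lower of 120 (2.40% and 1.90%). The counts were larger in cluster 3, with 180 cells and 11 higher and 23 lower of 128 (8.69% and 11.1%), and in cluster 1, with 223 cells and 19 higher and 33 lower of 130 (14.6% and 18.6%). Cluster 5, which was left unnamed and in which the dividing-cell gene Mki67 stood at 368 CPM, had 118 cells and 18 higher and 44 lower of 128 (19.5% and 24.2%). Of the 15 members higher in the whole EpA sum, 0, 14, 1, 7, 2 and 13 were called in clusters 0 to 5, and of the 21 lower members 0, 21, 0, 19, 2 and 21. The median UMI count per cell also differed, at 10216.5, 29852, 11589, 21531.5, 14119 and 54070 in the injured EpA cells of clusters 0 to 5, and its part in these counts was not tested. Of the 10 ependymal markers, 10, 3, 10, 9, 10 and 0 exceeded 100 CPM in these clusters, and the fewest were thus found in the clusters with the most calls. Clusters were drawn from the same cells, so these counts describe them and test nothing. Comparing the injured EpA cells of cluster 0 with the uninjured EpA cells of the same cluster left 0 members higher and 0 lower of 118. Over all genes the shares were 0.511% and 0.261%. Cells were put in a cluster for their likeness across both libraries, so few calls there are no test either.

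Slc5a3 stood at 34.7 CPM in injured EpA cells of cluster 0, 52.8 in cluster 2, 76.8 in cluster 4, 295 in cluster 3, 275 in cluster 5 and 399 in cluster 1. In uninjured EpA cells it had 32.8 CPM in cluster 0 and 37.6 CPM in cluster 2. Injured cells of cluster 0 thus lay beside the uninjured cells, and those of clusters 1, 3 and 5 well above. Slc26a3 ran in the opposite order, with 198, 212, 131, 55.9, 8.29 and 18.98 CPM in injured clusters 0, 2, 4, 3, 5 and 1, and 191 and 205 CPM in uninjured clusters 0 and 2. Slc39a12 likewise had 114, 89.8, 71.4, 33.2, 1.96 and 8.21 CPM in that order of injured clusters, and 114 and 107 CPM in uninjured clusters 0 and 2. Slc44a3 followed another pattern: it was 49.6 CPM in cluster 3 and 48.8 in cluster 4 but 16.8 in cluster 1 and 9.19 in cluster 5 of injured EpA cells. Slc39a6 was 50.6 CPM in cluster 1 and 55.4 in cluster 5 but 19.6 in cluster 3. Slc29a1 was highest in cluster 5, at 38.7 CPM, against 14.7 CPM in cluster 1.

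**Figure D2:**
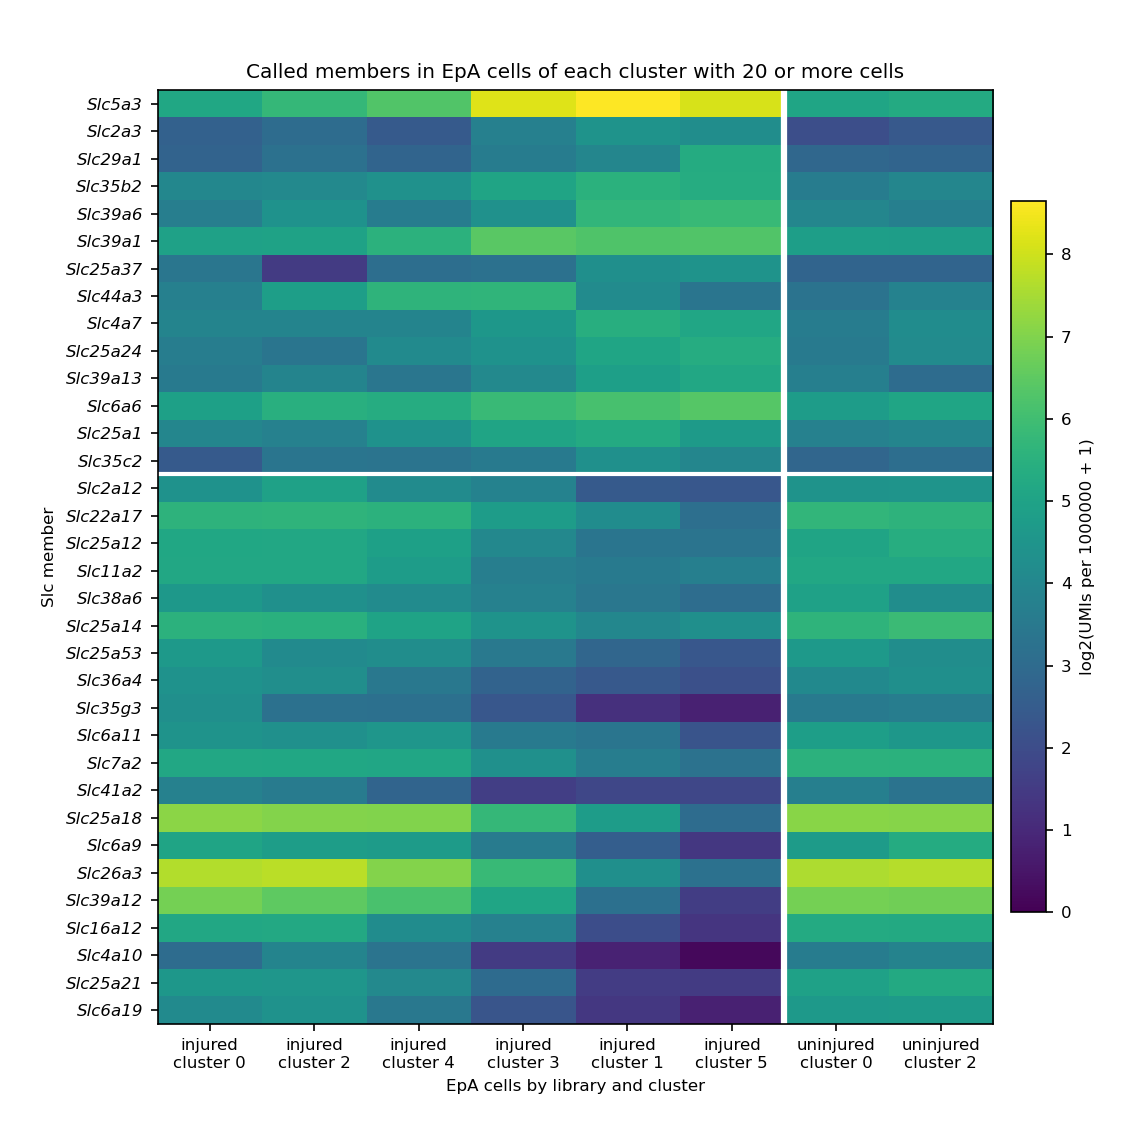
Level of the same 34 called members, as log2(UMIs per 1000000 + 1), in EpA cells of each cluster with 20 or more cells. Injured clusters stand left of the vertical line and uninjured clusters right of it, and members called higher stand above the horizontal line. Injured clusters 0 and 2 lie near the uninjured clusters, and clusters 1, 3 and 5 farther from them, as with 399 CPM of Slc5a3 in cluster 1.

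Shares of EpA cells with a UMI were compared after each cell had been thinned to 2000 UMIs. The intervals of these shares take the cells of 1 library as units and say nothing of variation between animals. Slc5a3 was seen in 27.9% of 992 injured EpA cells (exact binomial 95% interval 25.2 to 30.8) and in 8.04% of 547 uninjured EpA cells (5.91 to 10.6), and before thinning in 69.0% of injured and 31.7% of uninjured cells. Microglia-like cells, taken as the background type, had it in 0 of 26 thinned injured cells, which allows a share of up to 11.5%, and in 1 of 30 uninjured cells. Slc26a3 was seen in 16.6% of injured EpA cells (14.4 to 19.1) and in 33.8% of uninjured EpA cells (29.9 to 37.96), and before thinning in 58.9% of injured and 82.9% of uninjured cells. Slc39a12 was seen in 10.4% of injured (8.55 to 12.5) and 19.9% of uninjured EpA cells (16.7 to 23.5), and before thinning in 43.6% of injured and 69.5% of uninjured cells. Microglia-like cells had no UMI of Slc26a3, Slc39a12 or Slc14a1 after thinning, in the same 26 injured and 30 uninjured cells. Slc14a1 was seen in 19.2% of injured (16.7 to 21.7) and 16.8% of uninjured EpA cells (13.8 to 20.2). Before thinning, Slc14a1 was seen in 75.6% of injured and 60.5% of uninjured EpA cells.

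EpA cells were next set against the kept cells outside EpA in each library. In the injured library 136 members could be assessed, of which 27 were higher and 18 lower in EpA cells (19.7% and 14.3% of 9867 genes), with a median log2 ratio of 0.09 for members and 0.11 for all genes. In the uninjured library 171 could be assessed, of which 26 were higher and 76 lower in EpA cells (19.4% and 27.1% of 10861 genes), with a median of -0.60 for members and -0.14 for all genes. A member that reached the floor outside EpA alone had to be lower in EpA cells here. With 10 CPM required in both sums, 8 members were higher and 2 lower of 86 in the injured library (10.8% and 6.82% of 7153 genes). Under that condition 10 were higher and 21 lower of 93 in the uninjured library (13.5% and 12.5% of 7179 genes). The comparisons share their EpA cells with the comparison of injury. Fewer cells of a type and less RNA per cell cannot be told apart in the outside sums, whose cell types differ in number between the libraries. Neutrophil markers, for one, summed to 1.58 CPM in injured and 11147 CPM in uninjured cells outside EpA, and their part in the ratios was not tested.

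Of the members higher in EpA cells, 15 were called in both libraries, which is 55.6% of the 27 in the injured and 57.7% of the 26 in the uninjured library. Over all genes, 1312 were higher in both, which is 67.4% of those in the injured and 62.2% of those in the uninjured library. Slc26a3 led them, with 63.1 CPM in injured EpA cells and 3.87 CPM in injured cells outside EpA, and 194 CPM in uninjured EpA cells and 4.68 CPM in uninjured cells outside EpA. It was 16.3-fold higher in the injured library (11.1 to 24.8) and 41.4-fold higher in the uninjured library (18.99 to 113). The urea transporters belonged to this group. Slc14a1 had 106 CPM in EpA cells and 13.1 CPM outside in the injured library, and 97.3 CPM in EpA cells and 21.8 CPM outside in the uninjured library. Slc14a2 had 46.9 CPM in EpA cells and 5.88 CPM outside in the injured library, and 87.0 CPM in EpA cells and 4.68 CPM outside in the uninjured library. Slc38a1 had 222 CPM in EpA cells and 39.7 CPM outside in the injured library, and 267 CPM in EpA cells and 54.6 CPM outside in the uninjured library. Slc9a3r1, a scaffold that anchors carriers below the apical membrane, had 90.5 CPM in EpA cells and 22.2 CPM outside in the injured library, and 89.3 CPM in EpA cells and 33.5 CPM outside in the uninjured library. Slc5a3 was higher in EpA cells of both libraries too, 10.2-fold in the injured (8.81 to 11.9) with 260 CPM in EpA cells and 25.4 CPM outside. Slc6a19 had 24.1 CPM in uninjured EpA cells and no UMI in uninjured cells outside EpA, at least 10.3-fold higher against a floor of 3 counts over that sum. In injured cells it stayed under 10 CPM on both sides.

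**Figure D3:**
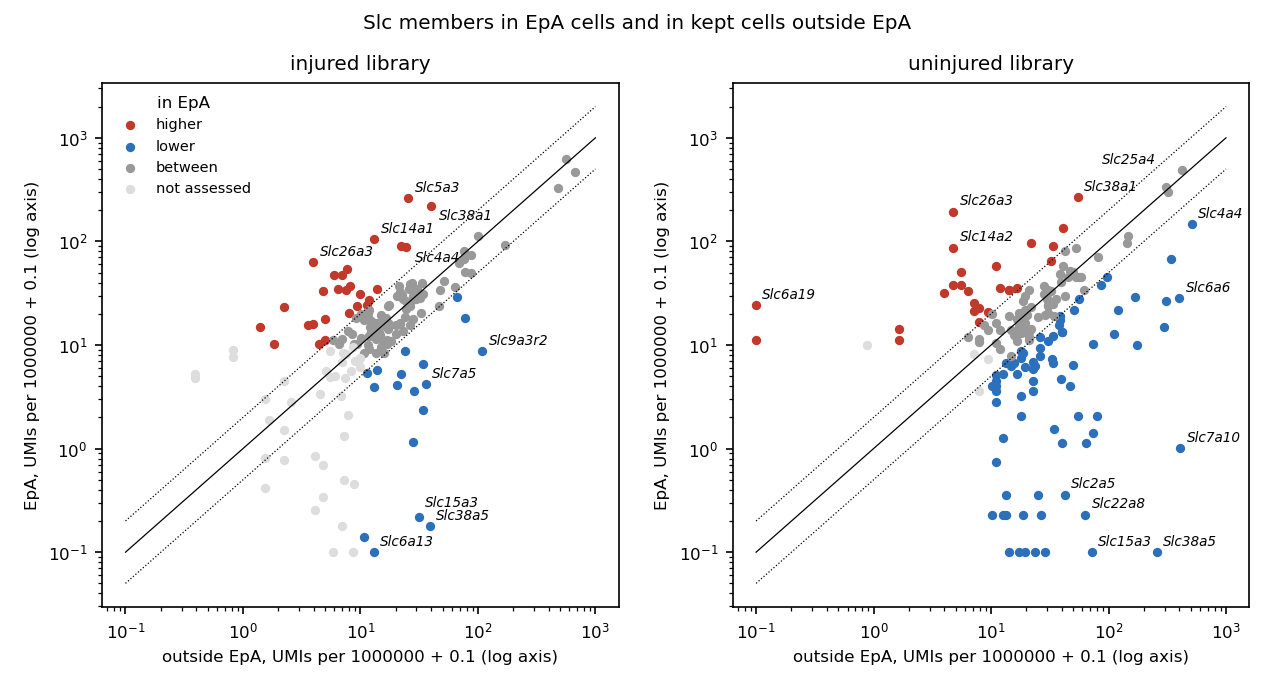
Level of each of the 175 members in EpA cells (vertical axis) against kept cells outside EpA (horizontal axis), in UMIs per 1000000 plus 0.1 on log axes, for the injured library on the left and the uninjured library on the right. The solid line marks equal levels and the dotted lines 2-fold, and colours give the call in EpA cells. Slc26a3 and Slc38a1 lie above the lines in both panels and Slc38a5 far below them.

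Of the members lower in EpA cells, 17 were called in both libraries, which is 94.4% of the 18 in the injured and 22.4% of the 76 in the uninjured library. Over all genes, 1140 were lower in both, which is 80.97% of those in the injured and 38.7% of those in the uninjured library. Slc38a5, a glutamine carrier, had 2 UMIs in injured EpA cells (0.0791 CPM) and 38.9 CPM in injured cells outside EpA, and no UMI in uninjured EpA cells against 259 CPM in uninjured cells outside EpA. It was at least 664-fold lower in EpA cells of the uninjured library. Slc15a3, a lysosomal peptide and histidine carrier, had 3 UMIs in injured EpA cells (0.119 CPM) and 31.3 CPM outside, and no UMI in uninjured EpA cells and 71.8 CPM outside. Slc6a13, a GABA and taurine carrier, had no UMI in either EpA sum, against 12.9 CPM outside in the injured and 28.9 CPM outside in the uninjured library. The floor of 3 counts was 0.119 CPM in the injured and 0.390 CPM in the uninjured EpA sum. Slc4a4 alone was called on opposite sides: it had 87.96 CPM in injured EpA cells and 24.5 CPM outside, and 146 CPM in uninjured EpA cells and 509 CPM outside.

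Outside EpA, 5 members were higher and 59 lower in injured than in uninjured cells of 155 assessed (8.78% and 22.7% of 10031 genes). The levels outside EpA were split by cell classes, named from clusters formed without Slc genes. Of the 76 members lower in uninjured EpA cells, the highest class level was in endothelial-like cells for 22, in microglia-like cells for 22, in astrocyte-like cells for 19 and in fibroblast-like cells for 13. Of the 18 lower in injured EpA cells it was in endothelial-like cells for 12, microglia-like cells for 3, fibroblast-like cells for 2 and an unnamed cluster for 1, Slc1a5. The top class led the next by 2-fold for 11 of these 18 and for 47 of the 76, so for the rest the top class is not clear from these sums. Some of these levels rest on few UMIs, such as 4 for Slc18b1 in uninjured microglia-like cells. The same split over all genes lower in EpA cells was not computed, so these counts say nothing particular of the members. Only 6 injured cells were astrocyte-like, too few for a sum of their own. Slc38a5 had 438 CPM in 34 injured and 654 CPM in 46 uninjured cells of endothelial-like cluster 7. Slc22a8, an organic anion carrier of the blood-brain barrier, had 76.8 CPM in injured and 160 CPM in uninjured cells of that cluster, and Slc7a5, a carrier of large neutral amino acids, had 176 CPM in injured and 136 CPM in uninjured cells. These levels do not hold for endothelial-like cells as a whole. The 80 injured cells of endothelial-like cluster 6 had at most 13.9 CPM of Slc38a5, 0.869 CPM of Slc22a8 and 32.4 CPM of Slc7a5. In microglia-like cells Slc15a3 had 286 CPM in 30 injured and 381 CPM in 36 uninjured cells, and Slc11a1, a metal carrier of phagosomes, had 94.8 CPM in injured and 141 CPM in uninjured cells. The fructose carrier Slc2a5 had 12.2 CPM in injured and 224 CPM in uninjured microglia-like cells, from 9 injured and 54 uninjured UMIs, 18.3-fold lower in the injured ones (8.98 to 42.3). Slc6a13 was seen in fibroblast-like cells, with 78.2 CPM in 36 injured and 194 CPM in 30 uninjured cells.

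Astrocyte-like cells held a set of carriers that were also found in EpA cells at lower levels. In the 30 uninjured astrocyte-like cells, Slc4a4 had 2693 CPM, Slc7a10, a carrier of small neutral amino acids, had 2236 CPM, Slc6a11 had 1673 CPM and Slc39a12 had 781 CPM. The sums of uninjured EpA cells held 146, 0.910, 26.4 and 112 CPM of these 4 genes. Slc7a10 was thus near its floor in EpA cells, and Slc4a4 and Slc39a12 were not. Without the astrocyte-like cluster 41 members, not 26, were higher in uninjured EpA cells, and the median log2 ratio was -0.27 in place of -0.60. In the same setting 22.8% of all genes were higher, and their median was -0.07 in place of -0.14. Against every class or cluster outside EpA of 20 or more cells taken singly, 19 of the 113 members at 10 CPM in injured EpA cells were 2-fold higher there, against 13.5% of all genes. In uninjured EpA cells 7 of 114 were, against 13.6% of all genes. The 7 were Slc14a2, Slc25a14, Slc26a3, Slc35g3, Slc38a1, Slc39a9 and Slc6a19. Slc14a1 was not among them because uninjured astrocyte-like cells had 107 CPM. These counts are not alike, since astrocyte-like cells had a sum in the uninjured library alone. Against the 3 clusters with 20 or more cells in both libraries, 23 members were higher in injured EpA cells (16% of all genes) and 24 in uninjured EpA cells (19.8% of all genes).

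**Figure D4:**
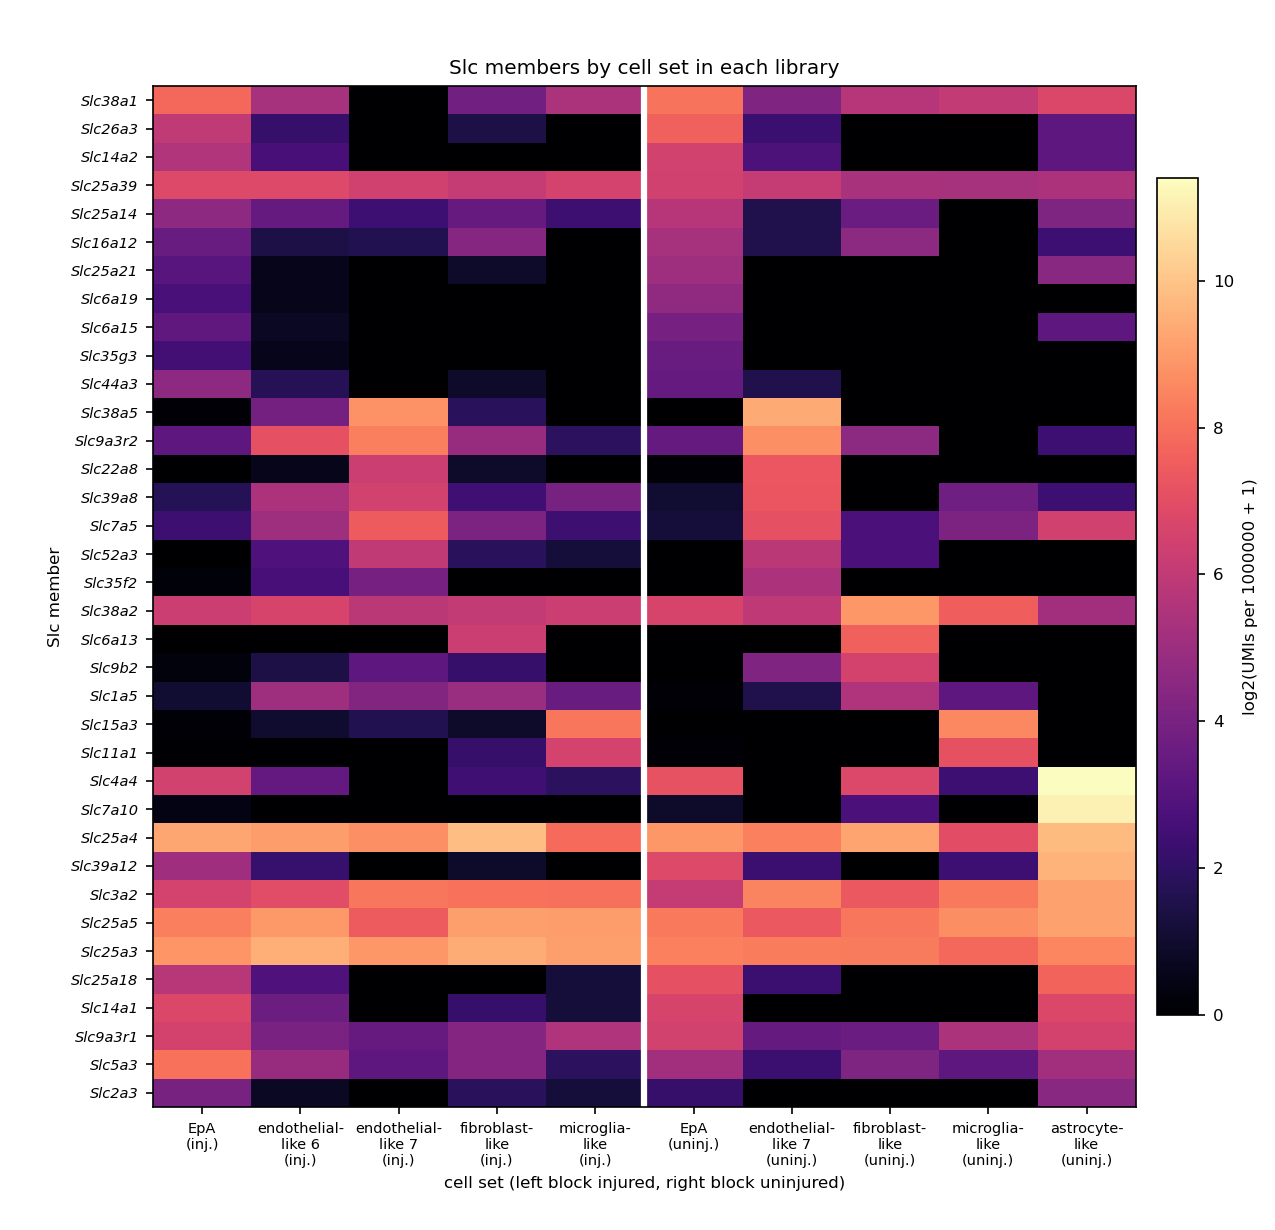
Level of named members, as log2(UMIs per 1000000 + 1), in EpA cells and in each outside class of 20 or more cells, with injured sets left of the line and uninjured sets right of it. Slc38a5 and Slc22a8 stand out in endothelial-like cluster 7, Slc15a3 and Slc11a1 in microglia-like cells, Slc6a13 in fibroblast-like cells and Slc7a10 and Slc4a4 in astrocyte-like cells, where Slc7a10 reaches 2236 CPM.

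A list of 70 other transport genes, covering ion pumps, aquaporins, ABC transporters and partners of solute carriers, was read in the same way. Of 51 assessed between the EpA sums, 4 were higher and 3 lower in injured cells, with a median log2 ratio of -0.05. Over all 9418 genes assessed by the same rule, 11.4% were higher and 11.4% lower. The 4 higher genes were Fxyd5 and Fxyd6, small regulators of the sodium pump, and the ABC transporters Abcg2 and Abcb8. Fxyd5 had 11.8 CPM in injured and 0.650 CPM in uninjured EpA cells, and Fxyd6 had 28.1 CPM in injured and 4.29 CPM in uninjured EpA cells. Abcg2 had 12.1 CPM in injured and 3.12 CPM in uninjured cells. Outside EpA, Fxyd5 stood at 471 CPM in injured and 373 CPM in uninjured cells. The lower genes included Atp1b1, a subunit of the sodium pump, and the cholesterol exporter Abcg1. Atp1b1 had 10.1 CPM in injured and 24.6 CPM in uninjured EpA cells. The water channel Aqp4 had 68.7 CPM in injured and 132 CPM in uninjured EpA cells, just under the threshold, and 0 of 15 assessed subunits of the proton pump were called in either direction.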

How the data were processed

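Single-cell mRNA 3′ ends were sequenced from 1 injured and 1 uninjured spinal cord library. The submitters' processing notes name the build mm10 and the tools Seurat and Cell Ranger 3.0.1. The sources used here do not say whether counting used strand. The authors deposited whole-number counts of UMIs per gene and cell, not normalised: 1 table per library with 1566 injured and 876 uninjured barcodes, a table of all kept cells and a table of EpA cells. The sets of cells follow the authors' tables, and cells kept but not EpA form the outside sets. The libraries share 18 barcode sequences, 2 of them among EpA cells, and these were kept apart.

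Counts were summed per set and scaled to 1000000 UMIs of the set. Log2 ratios had 0.5 counts added. Intervals are exact 95% intervals, Poisson for levels, conditional binomial for ratios and Clopper-Pearson for shares, and a count of 0 was set to a floor of 3 counts over the sum. The 175 members, the role groups, markers, other transport genes, rules and alternatives were chosen with earlier results of these data known. Genes were named by rule: the 12 largest and 12 smallest called ratios between EpA sums, the 10 highest levels per EpA sum, the 8 largest and 8 smallest called ratios against outside cells, the 3 highest per role, the neighbours of the floor, and the 4 largest and 4 smallest ratios of the other transport genes. Single values of a few genes picked by these rules are not reported here, while counts over members and lists include them. Remaining called members were counted and in part named after their values were seen.

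The kept cells were clustered without Slc genes with Scanpy 1.11.5 (2000 variable genes, 20 components, 15 neighbours, Leiden resolution 0.5). A class name needed at least 3 and over 50% of its markers at 100 CPM and 4-fold over other cells, and at most 1 marker of another class among the top 10 genes, a condition set after the clusters were seen. A cluster made mostly of EpA cells could take only the name ependymal-like, with 3 ependymal markers over 100 CPM. Scrublet marked 4 injured and 4 uninjured barcodes as doublets, including 3 injured and 1 uninjured EpA cell, too few to take doublets as absent, and none was removed. TMM factors came from edgeR 4.0.16. Exon overlaps were read from GENCODE M21: 9 members share exon positions with another gene on the same strand and 48 on the opposite strand, so reads of these genes are uncertain. Among the 36 called members only Slc5a3 has a same-strand overlap. The calculations were tested on simulated counts. Scripts used Python 3.11.15 with NumPy 2.4.6, SciPy 1.17.1 and pandas 2.3.3.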

Additional observations from a re-analysis of the deposited data

Results flagged for a closer look

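Slc6a6 was called in opposite directions between injured and uninjured cells in EpA and outside it. The log2 ratio in EpA cells minus that in outside cells was 3.66, with 61.4 CPM in injured and 28.5 CPM in uninjured EpA cells and 68.4 CPM in injured and 401 CPM in uninjured cells outside. The difference was not tested, since each value comes from 1 library. Within endothelial-like cluster 7, Slc6a6 had 440 CPM in 34 injured and 924 CPM in 46 uninjured cells, 2.10-fold lower (1.78 to 2.48). The 80 injured cells of endothelial-like cluster 6 had at most 141 CPM, and that cluster held too few uninjured cells for a sum. The part of this difference in cell make-up in the outside values was not tested. In microglia-like cells Slc6a6 was level, at 141 CPM in injured and 145 CPM in uninjured cells. The endothelial markers of EpA cells summed to 24.9 CPM in injured and 28.1 CPM in uninjured cells.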

How the results depend on the processing

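Counts per cell without scaling gave 44 members higher and 3 lower of 127 in injured EpA cells (median log2 ratio 0.73). Over all genes the shares were 40.65% and 1.68%. Against outside cells, 42 were higher and 47 lower of 171 in the uninjured library (0.16), with 36.2% and 18.6% of all genes. In the injured library 29 of 136 were lower (-0.22), with 18.5% of all genes. Weighting every cell alike gave 6 higher and 5 lower of 126 in injured EpA cells (6.68% and 3.84% of all genes). Of 145 in the injured library, 28 were lower than outside (-0.0564), with 17.3% of all genes. Thinning to 2000 UMIs gave 12 lower of 127 in injured EpA cells (6.26% of all genes). Against outside cells the median was -0.77 in the uninjured library, with -0.23 for all genes. In the injured library 28 of 142 were lower than outside, with 18.6% of all genes. A floor of 50 CPM gave 3 higher and 5 lower of 26 by injury (-0.31), with 10.85% and 13.79% of all genes. Against outside cells it gave 9 higher and 22 lower of 46 in the uninjured library (-0.74), with 24.47% and 24.42% of all genes. In the injured library that floor gave 7 higher and 3 lower of 23 (-0.18), with 17.99% and 15.28% of all genes. No floor gave 30 of 175 higher by injury (-0.0318), with 19.25% of all genes. It gave 33 of 175 lower than outside in the injured library (-0.0545), with 19.6% of all genes. Cells with 1000 UMIs and under 10% mitochondrial counts gave medians of -0.23 by injury and -0.32 in the uninjured library. A 1.5-fold threshold gave 23 higher and 40 lower of 127 by injury (20.6% and 21.9% of all genes). It gave 36 of 136 lower in the injured library (20.8% of all genes). Totals without mitochondrially encoded and ribosomal protein genes and TMM factors moved the injured median against outside cells to -0.0349 and -0.0715. Counting only intervals past 2-fold gave 7 higher and 10 lower by injury, and 14 and 50 in the uninjured library. The share of all genes past that bound was not computed. The causes were not tested, other than that stricter thresholds let fewer genes pass.

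Alternatives added after the data were seen were cluster 0 alone and outside cells without the astrocyte-like cluster. Cluster 0 alone gave 0 higher and 0 lower of 118 by injury (0.00796), with 0.511% and 0.261% of all genes. Cells of both libraries were clustered together, so those of cluster 0 were grouped for their likeness, and small ratios there test nothing. Without the astrocyte-like cluster 41 of 165 were higher in the uninjured library (-0.27), with 22.8% of all genes. Only members picked by the naming rules and reported singly were followed gene by gene. Among them, the sign turned in cluster 0 alone for Slc29a1 (-0.16), Slc39a6 (-0.29), Slc39a13 (-0.17), Slc25a18 (0.0302), Slc26a3 (0.0569), Slc39a12 (0.00176), Slc35g3 (0.77), Slc41a2 (0.10) and Slc6a9 (0.32). None of these turned ratios reached 2-fold. No other alternative turned the sign of a called member followed in this way. Called members named above outside those rules were not followed: Slc2a12, Slc11a2, Slc25a1, Slc25a12, Slc25a53, Slc38a6, Slc36a4, Slc35c2 and Slc22a17. Among the values of members reported singly under the alternatives, 580 moved by less than their counting interval, 230 by more and 9 turned sign. Among the 36 members called by injury, 11 were also called when cells had equal weight, 17 after thinning and 18 without scaling. Most of the 36 were thus not called with equal weight, and the ratios given above for single members are those of the scaled sums. The matching shares of calls kept over all genes were not computed. No paired analysis was possible because there is 1 library per condition. Depth limits the outside uninjured sum most, where 3 counts stand for 2.34 CPM, against 0.119 CPM in injured EpA cells.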
